A study of Mus musculus with 68 samples.

Results

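Small nucleolar RNAs (snoRNAs) and the genes that carry them were described in 67 RNA-seq libraries of mouse oocytes and embryos. The members were chosen by name alone: every gene called Snora or Snord with a number was taken as a snoRNA, and every Snhg gene with a number and Gas5 as a host gene. This gave 119 of the 24941 genes listed in any of the 8 tables, namely 105 snoRNAs (69 Snord, the box C/D class, and 36 Snora, the H/ACA class) and 14 host genes. The tables do not all list the same genes: 42 snoRNAs and 12 hosts are in every table, and those for PN5, L2C and 8C list only 42, 45 and 42 snoRNAs.

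The study deleted Ezhip, which encodes an inhibitor of the histone methyltransferase complex PRC2, and compared expression with wild type. FGO oocytes were wild type (WT, 2 libraries), Ezhip Het (2) or Ezhip KO (3). Embryos were WT, mHet or mKO, as the labels name them: 2 libraries of each at the 1-cell stage PN5 and at the late 2-cell stage L2C, and 2 WT, 1 mHet and 3 mKO libraries at 8C. E3.5 embryos were given in a first table with 2 libraries and a second with 5 libraries of each genotype, E4.25 embryos as 4 WT, 1 mHet and 4 mKO libraries, and E6.5 epiblast (Epi) and extraembryonic ectoderm (Exe) as 2 libraries of each genotype and tissue. The protocols also describe culture with the EZH2 inhibitor GSK343 or DMSO up to 8C, and no label names a library as treated. The sources used here do not give the deleted part of Ezhip, the strain or any pooling of animals or embryos. Nor do the labels say that replicates were separate collections, so p-values measure only the spread between these libraries, which may be technical.

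snoRNAs guide chemical changes of ribosomal RNA. Box C/D snoRNAs act with fibrillarin, Nop56 and Nop58 to place 2′-O-methyl groups, and H/ACA snoRNAs act with dyskerin to make pseudouridine. Most mammalian snoRNAs are cut out of introns of host genes, many of which encode ribosomal proteins or translation factors. Gas5 and most Snhg genes are hosts with little protein-coding potential, and the spliced RNA of several of them is removed by nonsense-mediated decay. Mature snoRNAs carry no poly(A) tail, while these libraries were made from poly(A) RNA. Reads from mature snoRNAs and from host RNA that still holds the intron, or from host exons, therefore cannot be told apart here. Rn45s is the precursor of ribosomal RNA, and its share of each library is given beside the members because a transcript with a large share lowers the FPKM (fragments per kilobase of gene and per fixed number of mapped fragments) of all others.

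The sequences of 7 snoRNAs are shown from the transcripts of GENCODE release M21 on build GRCm38. These are the 5 with the largest mKO difference at E4.25, Snora47, which was the highest snoRNA in oocytes, and Snord47, a Gas5 snoRNA with the smallest p-value in mKO epiblast. Capitals mark the ACA near the end of the H/ACA snoRNAs, and in the box C/D snoRNAs the first TGATGA (box C) and the last CTGA (box D).
Snora70: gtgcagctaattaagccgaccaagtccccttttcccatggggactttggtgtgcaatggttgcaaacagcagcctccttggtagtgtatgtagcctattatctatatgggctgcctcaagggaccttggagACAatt
Snora68: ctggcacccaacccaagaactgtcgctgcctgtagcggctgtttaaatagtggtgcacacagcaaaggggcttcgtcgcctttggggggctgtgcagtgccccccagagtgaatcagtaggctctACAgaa
Snora47: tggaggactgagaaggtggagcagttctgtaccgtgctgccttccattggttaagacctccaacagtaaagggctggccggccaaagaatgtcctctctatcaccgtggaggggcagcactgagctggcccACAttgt
Snord33: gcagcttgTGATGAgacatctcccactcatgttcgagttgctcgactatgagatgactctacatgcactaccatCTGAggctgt
Snord16a: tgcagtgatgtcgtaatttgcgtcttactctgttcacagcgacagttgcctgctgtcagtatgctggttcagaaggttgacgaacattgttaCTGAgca
Snord12: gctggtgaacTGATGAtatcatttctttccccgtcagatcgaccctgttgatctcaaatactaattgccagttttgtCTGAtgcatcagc
Snord47: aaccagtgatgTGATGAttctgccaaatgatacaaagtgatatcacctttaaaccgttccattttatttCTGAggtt

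The 3 H/ACA sequences are 131 to 138 bases long and the 4 box C/D sequences 77 to 99. Snord16a holds no exact TGATGA, the only 1 of the 4 box C/D sequences without it. Over the 104 snoRNAs found in the annotation, TGATGA on the transcribed strand occurred in 46 of 68 box C/D sequences (67.6%) and in 0 of 36 H/ACA sequences. CTGA within the last 15 bases occurred in 61 of 68 (89.7%) and 2 of 36 (5.6%), and ACA placed 3 bases before the end in 0 of 68 and 30 of 36 (83.3%). A match describes the letters only. Of the 105 snoRNAs, 99 lie inside an annotated gene on the same strand, 74 of them in a protein-coding gene and 12 in Gas5 or an Snhg gene. Ribosomal protein genes other than Rplp2, which holds Snora52, hold 30. In 48 of the 99 some annotated transcript has an exon over the snoRNA, and 51 lie in an intron of every transcript. There are 20 genes that hold more than 1 snoRNA, so that these snoRNAs share a source.

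Ezhip was low where the labels say it was deleted, as far as its level allows that check. AU022751, the tables' name for Ezhip, was at 297 to 546 FPKM in WT oocytes and at most 0.175 in KO oocytes, and at 251 to 368 in WT and at most 0.933 in mKO embryos at PN5. At E4.25 it was listed at 0 in all 4 WT libraries and was at most 0.0416 in mKO, and it was too low in WT from 8C on to check a label. The oocyte markers Gdf9, Bmp15, Zp3, Oosp1 and Zp2 summed to 5710 to 13465 FPKM in FGO. The 6 follicle cell markers summed to 0.659 to 12.9 FPKM there, and 4 of them stayed under 1 FPKM in all oocyte libraries. Epiblast markers summed to 369 to 609 FPKM in Epi and 135 to 255 in Exe, and extraembryonic ectoderm markers to 235 to 351 in Exe and 7.36 to 53.9 in Epi. Between 4940 and 9804 genes reached 1 FPKM in a library, and the number of reads is unknown. Rn45s took the largest shares of the summed FPKM in replicate 4 of mKO in the second E3.5 table (69.5%, with 4940 genes at 1 FPKM) and in E4.25 WT replicate 3 (68.6%, with 5998).

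Few snoRNAs were detected in oocytes and 1-cell embryos, and most were detected from L2C on. Of the 42 snoRNAs listed everywhere, 8 reached 1 FPKM in at least 2 libraries in FGO and 11 in PN5, while 40 did so in L2C and 8C and 37 to 41 in the later tables. In FGO 20 and in PN5 18 of the 42 were listed at 0 in every library. The median over these 42 of the mean FPKM was 0.0518 in FGO, 0.117 in PN5, 3.33 in L2C, 7.27 in 8C, 4.16 and 4.18 in the E3.5 tables, 4.47 in E4.25, 8.90 in Epi and 9.47 in Exe. The sum over the 42 ran from 3.45 to 45.0 FPKM in FGO and from 18.2 to 74.7 in PN5, and from 225 to 459 in L2C. No L2C library overlapped with an FGO or PN5 library. The tables were normalized separately, so these levels are set side by side without a test, and in bulk samples fewer cells and less RNA per cell cannot be told apart.

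The 12 hosts listed everywhere showed the same step. Their median of mean FPKM was 1.53 in FGO, 0.818 in PN5, 26.2 in L2C and 28.1 in 8C, then 14.0 and 20.0 in the E3.5 tables, 14.6 in E4.25, 49.5 in Epi and 55.2 in Exe. Their sum ran from 20.5 to 87.3 FPKM in FGO, from 13.7 to 35.2 in PN5, from 293 to 970 in L2C and from 624 to 1326 at E6.5. The Rn45s share ran from 0.209% to 1.47% in FGO, 0.936% to 1.68% in PN5, 1.68% to 5.75% in L2C and 1.53% to 6.03% in 8C. It was 2.13% to 21.0% in the first and 9.19% to 69.5% in the second E3.5 table, 11.7% to 68.6% in E4.25, 0.341% to 3.20% in Epi and 1.46% to 11.6% in Exe. With Rn45s left out and each library scaled to its former total, the sums of the 42 snoRNAs were still 3.51 to 45.1 FPKM in FGO, 18.4 to 75.7 in PN5 and 237 to 467 in L2C.

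**Figure D1:**
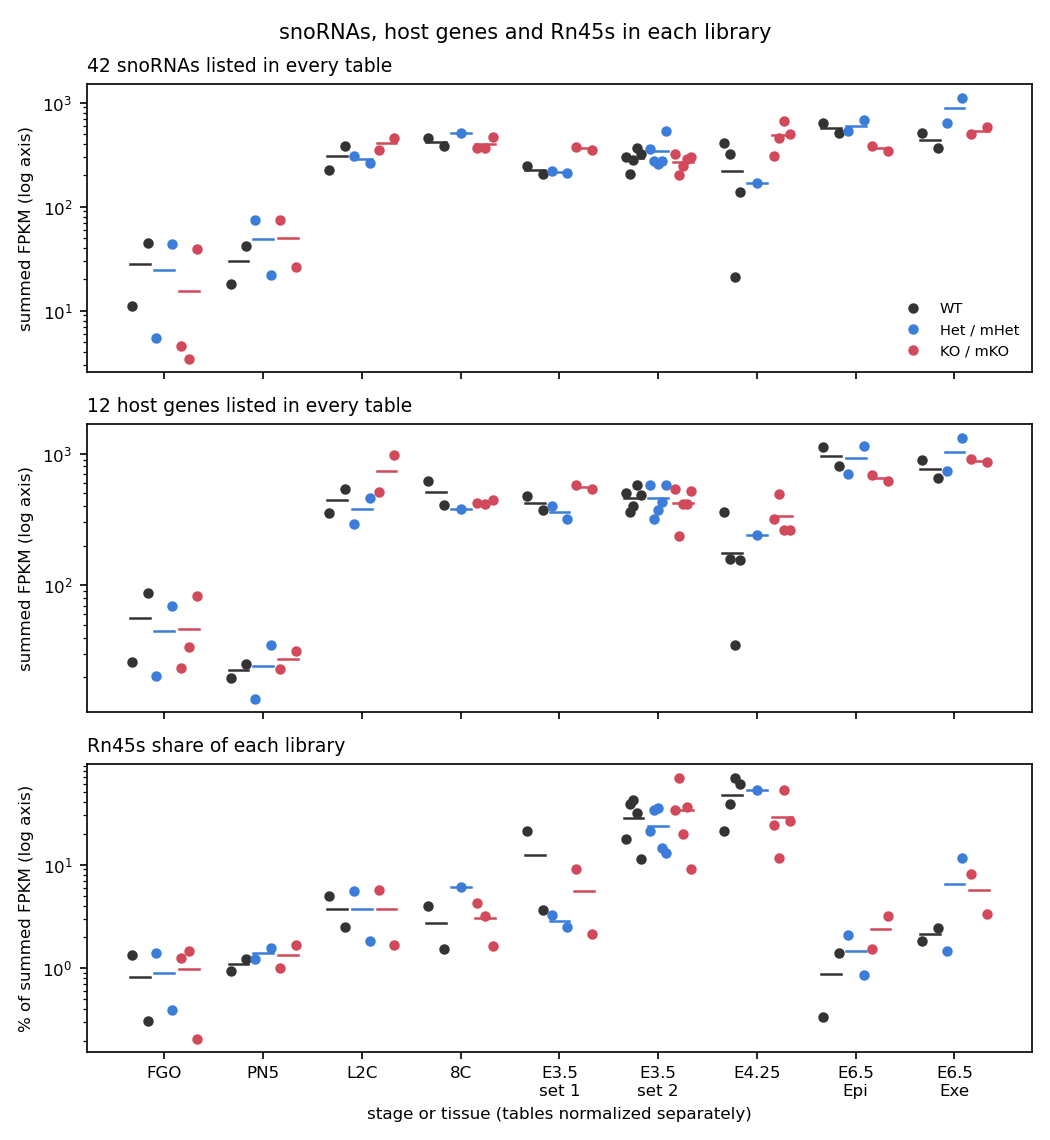
Summed FPKM of the 42 snoRNAs (top) and 12 host genes (middle) that every table lists, and Rn45s as a percent of the summed FPKM (bottom), on log axes, by stage or tissue. Points are libraries, short lines are means of a genotype; L2C snoRNA sums lie between 225 and 459 FPKM, above all PN5 sums (18.2 to 74.7), and E4.25 WT replicate 3 is the lowest point after PN5 in the snoRNA and host panels.

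Single hosts differed in when they were first high. Gas5, the host of box C/D snoRNAs whose RNA is known to build up in growth-arrested cells, had a lowest, median and highest value of 1.80, 2.10 and 9.69 FPKM in FGO. It was at 2.71 to 5.70 in PN5, and then at a lowest, median and highest of 22.8, 30.8 and 46.6 in L2C, 61.5, 74.0 and 93.4 in 8C, and 84.2, 95.0 and 110 in the first E3.5 table. In the second E3.5 table it was at 24.9, 58.3 and 72.7, and at E6.5 at 104, 154 and 227 in Epi and 103, 143 and 293 in Exe. Gas5 in L2C lay above every earlier library and below every 8C library.

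Snhg3 went from at most 0.861 FPKM in PN5 to 86.4, 153 and 362 in L2C, and it was the highest host in L2C, 8C, both E3.5 tables and E6.5. Snhg9 had its highest level in L2C, with 46.0, 81.3 and 262 FPKM, against 2.70, 3.95 and 10.4 in Epi. Snhg12 was at most 0.679 FPKM in FGO and 0.564 in PN5, and 16.5, 22.5 and 29.6 in L2C. Snhg8 was at most 1.18 in FGO and 2.19 in PN5, and 9.26, 18.1 and 28.3 in L2C. These hosts had no library in common between PN5 and L2C.

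Snhg6 was the exception among the hosts in FGO, where it was the highest, with 9.96, 21.1 and 52.1 FPKM. It was lower in PN5 (1.03, 5.16 and 5.78) and at 29.6, 38.3 and 76.7 in L2C, so that its FGO and L2C ranges overlapped. Snhg18 was the second host by mean in FGO (4.44, 6.47 and 15.6 FPKM), and it was at 1.84, 2.29 and 5.27 in L2C. Snhg10 was the highest host in PN5 (3.19, 4.72 and 8.28), was highest in L2C (17.5 to 56.9) and was at most 6.79 in every later library. Snhg1 was at 3.03, 5.31 and 10.4 FPKM in FGO, 0.446, 2.64 and 8.55 in PN5 and 32.1, 57.9 and 66.9 in L2C. Snhg5 was at 1.11, 2.09 and 8.10, then 1.71, 4.55 and 6.89, then 10.4, 15.6 and 33.9 in the same order of stages.

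Snora47 departed from the rest after L2C. It lies in an intron of Zbed3, a gene whose RNA is abundant in oocytes, and was the highest snoRNA in FGO (1.24, 7.70 and 30.0 FPKM) and in PN5 (6.72, 15.7 and 48.6). It was still at 6.80, 35.1 and 70.5 in L2C and at 2.26, 4.97 and 12.3 in 8C. It was listed at 0 in all 6 libraries of the first E3.5 table and in all 12 E6.5 libraries, and was at most 2.17 in the second E3.5 table. None of the 42 snoRNAs listed everywhere, Snora47 among them, was at 0 in every E4.25 library. Zbed3 was at 1519 to 4719 FPKM in FGO, 2743 to 5047 in PN5, 276 to 509 in L2C and at most 4.20 in 8C. Apart from Snora47 the FGO and PN5 snoRNAs had low means: the next highest were 2.06 (Snora75) and 1.88 FPKM (Snora30) in FGO, and 3.22 (Snora28) and 3.07 (Snora21) in PN5. Single libraries were higher. Snora75 reached 7.23 FPKM in a WT and Snora30 6.83 in a Het oocyte library, and in PN5 Snora75 reached 5.51 in mHet and Snora68 5.45 in mKO.

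**Figure D2:**
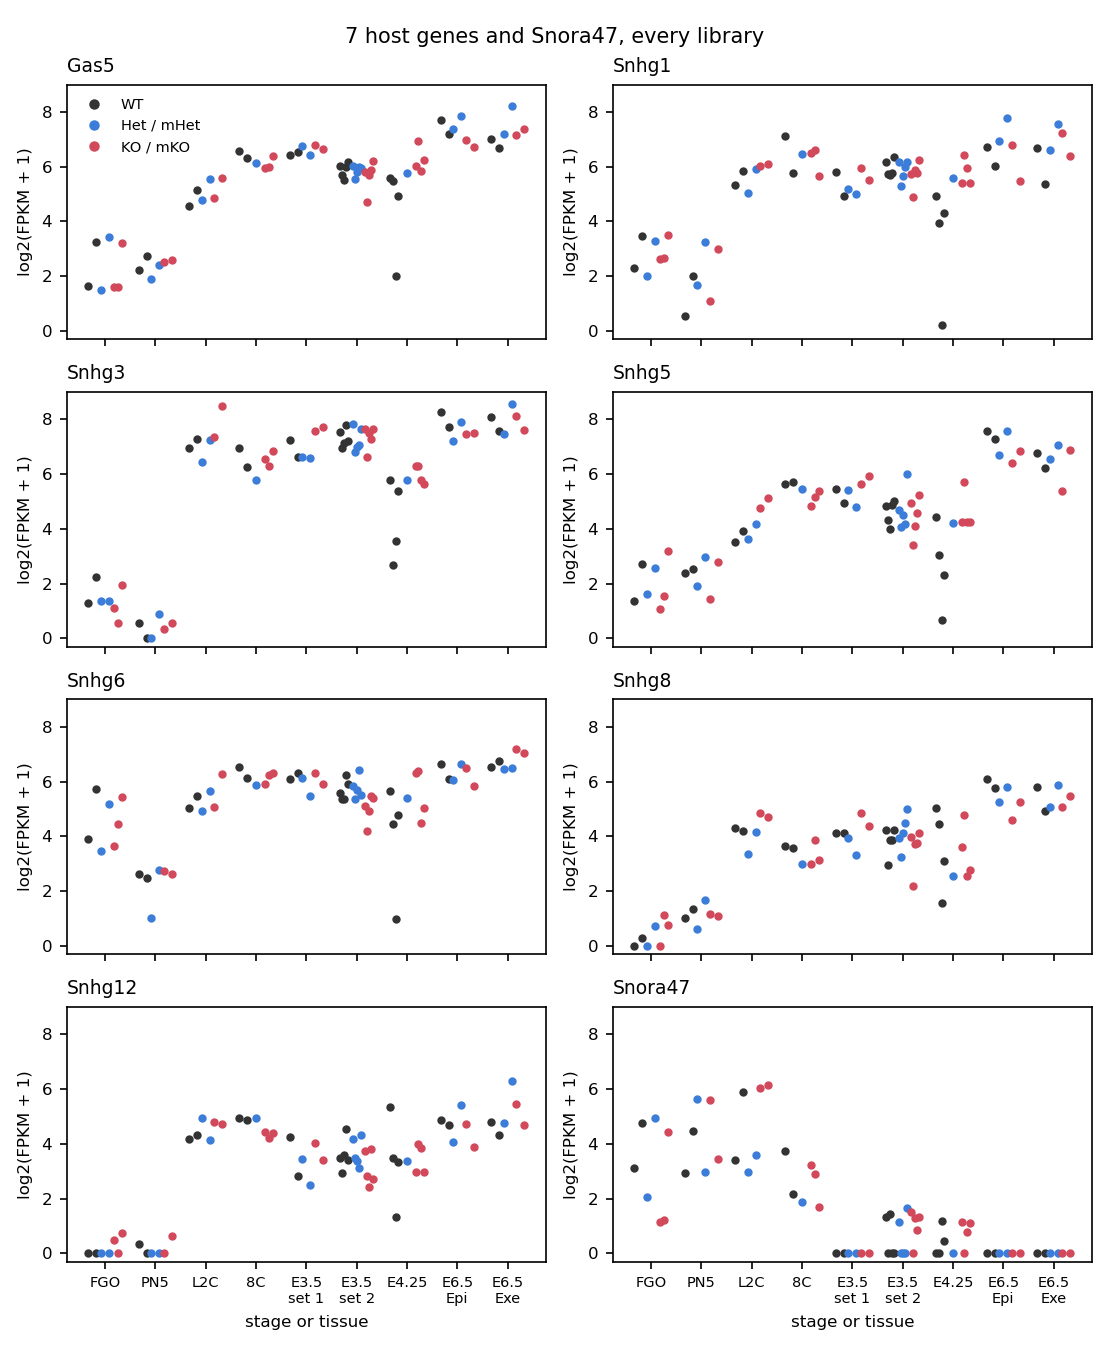
Level of 7 host genes and Snora47 in every library, as log2(FPKM + 1), by stage or tissue and coloured by genotype. The hosts sit low in FGO and PN5 and high from L2C on, with Snhg6 high in FGO as well (up to 52.1 FPKM). Snora47 is seen from FGO to 8C and above 0 in some libraries of the second E3.5 table and E4.25, and is listed at 0 at E6.5.

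The leading snoRNAs changed from stage to stage. Snord104 (mean 49.2 FPKM), Snora68 (46.3) and Snora47 (37.1) led L2C, and Snora26, held by the noncoding gene Dancr, led 8C (46.2 to 74.9 FPKM) ahead of Snora68 and Snora21 (24.6). Snora68 had the highest mean in both E3.5 tables (27.2 and 58.7 FPKM) and at E6.5 (78.1). Snord52 (19.4) and Snord96a (18.0) followed in the first E3.5 table, Snora26 (23.8) and Snord47 (21.4) in the second, and Snord47 (45.7) and Snord52 (34.2) at E6.5. At E4.25 Snora26 (41.4), Snora68 (38.3) and Snora78 (28.0), held by Snhg9, had the highest means.

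Among oocytes, libraries stood apart by the sample numbers in their library names and not by genotype. Samples 1 to 4 (1 WT, 1 Het and 2 KO) had a summed snoRNA level of 4.16 to 11.1 FPKM, and samples 5 to 7 (1 of each genotype) 46.9 to 54.4. Gas5 was 1.80 to 2.10 in the former and 8.32 to 9.69 in the latter, and Snora47 1.24 to 7.70 and 20.8 to 30.0. Zbed3 went in the opposite direction, with 3921 to 4719 FPKM in samples 1 to 4 and 1519 to 2389 in samples 5 to 7. The Rn45s share was 1.26% to 1.47% in samples 1 to 4 and 0.209% to 0.391% in samples 5 to 7, and 7316 to 8443 against 9432 to 9801 genes reached 1 FPKM. The labels do not say what the numbers stand for.

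Genotype comparisons were made within each table on log2(FPKM + 1) with limma, over genes that reached 1 FPKM in 2 or more libraries, and every difference given as log2 is on that scale, which understates the change of low genes. A gene passed at an adjusted p under 0.05 over all genes tested. Members kept by that filter were few in oocytes: 10 of 105 snoRNAs and 9 of 14 hosts. None passed in KO against WT oocytes, where 0.0102% of all genes did, or in Het against WT, where 0% did. At an unadjusted limma p under 0.05, there were 0 members in KO oocytes (0.0204% of all genes higher, 0.0917% lower) and 1 in Het, Snora15, which was higher (0.0509% of all genes higher). Snora15 was at 3.27 and 1.04 FPKM in Het and listed at 0 in all WT and KO libraries. It thus met the filter through Het alone, the group where it is high. No member had groups without overlap in KO oocytes, where 0.845% of all genes did with KO higher and 1.12% with KO lower. Snora47 had the smallest p of the lower members in KO oocytes, at 1.24, 1.34 and 20.8 FPKM against 7.70 and 26.4 in WT (log2 difference -1.67 ± 0.87 SE, adjusted p = 1). Within the sample sets it was at 1.24 and 1.34 in KO against 7.70 in WT and at 20.8 against 26.4, and with the set as a term, added after seeing the data, the log2 difference was -1.23 (adjusted p = 0.765) and again 0 snoRNAs and 0 hosts passed in KO or Het. Snora33 was the corresponding higher member, at 2.43, 0 and 3.22 FPKM in KO and 0 and 1.10 in WT (adjusted p = 1).

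In PN5 embryos 11 of 42 snoRNAs and 6 of 12 hosts were kept and none passed in mKO (0.0116% of all genes) or mHet (0%). At an unadjusted p under 0.05 each comparison held the same pair. Snora68 was at 0 and 1.02 FPKM in WT and 5.45 and 3.58 in mKO, with 1.65 and 2.54 for mHet, a log2 difference of 1.93 ± 0.39 in mKO (adjusted p = 1). Snord33, held by Rpl13a, was at 1.85 and 1.02 FPKM in WT and listed at 0 in all mHet and mKO libraries. It met the filter through the WT libraries alone, where it is high. Groups did not overlap for 2 snoRNAs higher in mKO and 1 lower, where 8.81% and 16.9% of all genes did so. Of all genes, 0.628% were higher and 1.86% lower at that unadjusted p in mKO, and 0.337% and 0.5% in mHet.

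In L2C mKO embryos most hosts were above WT without passing. Of 14 hosts 13 were higher in mKO, with a median log2 difference of 0.52 against -0.07 over all genes, and in 9 of 14 both mKO libraries lay above both WT libraries, where 13.7% of all genes did. None passed the limma test (0.00969% of all genes did), and 2 hosts and 4 snoRNAs were higher at an unadjusted p under 0.05, against 3.2% of all genes. Snhg5 was at 10.4 and 14.2 FPKM in WT and 26.3 and 33.9 in mKO, with 11.6 and 17.0 for mHet (log2 difference of mKO from WT 1.23 ± 0.29, adjusted p = 0.379). Snhg3 was at 124 and 156 FPKM in WT against 165 and 362 in mKO, with 86.4 and 150 in mHet. The snoRNAs had a median of 0.41, with 26 of 40 higher, and 2 were lower at an unadjusted p (4.36% of all genes). Snord82, held by nucleolin, was the lower member with the smallest p, at 1.47 and 2.78 FPKM in WT and listed at 0 in both mKO libraries (adjusted p = 0.469). In mHet, medians were 0.09 for snoRNAs and -0.08 for hosts, no member passed (0% of all genes), and at an unadjusted p Snora70 and Snord42b were higher and Snora52 and Snord35b lower (1.58% and 1.36% of all genes). The Rn45s share of the L2C mKO libraries was 5.75% and 1.68%, of the WT libraries 5.04% and 2.48%.

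At 8C most hosts were below WT in mKO without passing. Of 11 hosts kept 10 were lower, with a median of -0.27, but with median ratio scaling 8 of 11 were. None of the 40 snoRNAs or the hosts passed (0.012% of all genes), and at an unadjusted p 4 snoRNAs (Snord22, Snord89, Snord33 and Snord16a) and 1 host (Snhg10) were lower and none higher, against 2.95% and 1.07% of all genes. With the replicate number as a term 4 snoRNAs passed, and the share of all genes in that fit is not given. Same-numbered libraries did not deviate together throughout (r from -0.174 to 0.303), so the numbers are not taken as pairs. Groups did not overlap for 4 snoRNAs and 4 hosts lower in mKO and 1 snoRNA higher, where 9.15% and 7.46% of all genes did so. Snord22, held by Snhg1, was at 10.7 and 5.45 FPKM in WT and 1.07, 2.84 and 4.87 in mKO (log2 difference -1.27 ± 0.45, adjusted p = 0.999). Snord42b was the higher member with the smallest p, at 7.26 and 7.36 in WT and 14.3, 8.58 and 12.9 in mKO (adjusted p = 0.999). Gas5 was at 93.4 and 79.6 FPKM in WT, 68.5 in the mHet library and 61.5, 62.5 and 81.8 in mKO, so that the groups overlapped.

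In the first table of E3.5 embryos snoRNAs were mostly above WT in mKO: 59 of the 72 kept were higher, with a median of 0.58 against 0.22 over all genes, and 52 of 72, with a median of 0.38 against 0.04, with median ratio scaling. In 22 of 72 both mKO libraries lay above both WT libraries, where 16.3% of all genes did. None passed the limma test (0.0407% of all genes, 0.0203% higher), and 17 were higher and 1 lower at an unadjusted p, against 3.54% and 1.94% of all genes. Snora3, an H/ACA snoRNA in Rpl27a, came closest, at 1.48 and 0.369 FPKM in WT, 2.96 and 1.90 with mHet and 13.0 and 11.9 in mKO (log2 difference 2.87 ± 0.38, adjusted p = 0.0559). Its gene Rpl27a was at 237 and 479 FPKM in WT and 460 and 443 in mKO. Snord70, in Nop58, was the lower member with the smallest p (1.85 and 1.58 FPKM in WT, 0 and 0.733 in mKO, adjusted p = 0.647), with no mKO library at 1 FPKM. Of 12 hosts 10 were higher (median 0.43), among them Snhg3 with 150 and 96.9 FPKM in WT and 189 and 211 in mKO. WT replicate 1 had an Rn45s share of 21.0% and WT replicate 2 one of 3.66%, against 9.12% and 2.13% in mKO. With 2 libraries a group, leaving out a library tests an arm of 1, with the spread then taken from the other groups and the lone library assumed to vary like them. Over the 4 fits of that kind the log2 difference of Snora3 ran from 2.44 to 3.30, and the count of snoRNAs that passed changed with the library left out. The mHet snoRNAs had a median of -0.09 where all genes had 0.43, and 0 members passed (0% of all genes). At an unadjusted p 6 snoRNAs were higher and 2 lower, against 6.2% and 1.55% of all genes. With median ratio scaling the median of all genes was 0.07, and 24 of 72 snoRNAs in place of 32 and 0 of 12 hosts in place of 4 were higher. Leaving out WT replicate 2 leaves only the WT library with the Rn45s share of 21.0%, and in that fit the count of mHet members that passed was no longer 0.

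In the second E3.5 table, with 5 libraries a group, snoRNAs lay on both sides of WT. Of 92 snoRNAs kept 44 were higher and 48 lower in mKO, with a median of -0.01, and with Rn45s removed 51 of 93 were higher. Of 14 hosts 2 were higher, and 4 with median ratio scaling. None passed (0.0539% of all genes), and 5 snoRNAs (Snora30, Snord73a, Snord49b, Snord83b and Snord38a) were higher and none lower at an unadjusted limma p under 0.05, against 0.658% and 5.1% of all genes. Snora30 had the smallest p, at a lowest, median and highest of 0, 0.335 and 14.6 FPKM in WT and 6.86, 10.9 and 29.2 in mKO (log2 difference 2.19 ± 0.79, adjusted p = 0.618). The ranges of its groups overlapped. Snora3 was at 0 to 6.01 FPKM in WT and 0.853 to 6.18 in mKO, which overlap (log2 difference 0.84 ± 0.55, adjusted p = 1). Snhg7 was the lower member with the smallest p, at 3.65 to 8.52 FPKM in WT and 1.15 to 5.72 in mKO (adjusted p = 0.888). In mHet no member passed (0% of all genes) and Snord17, Snora3, Snord49b and Snord38a were higher at an unadjusted p (1.16% of all genes). Of 14 hosts 7 were higher in mHet, and 3 with median ratio scaling.

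The snoRNAs that passed the test for genotype were all at E4.25. Of 98 listed, 81 were kept and 30 were higher and 1 lower in mKO than in WT, 37% higher against 14.3% of all genes, and 0.251% of all genes lower. All genes had a median log2 difference of 0.74, so the whole table was shifted, and snoRNAs had 1.29 (box C/D 1.48, H/ACA 0.72). Higher in mKO, passing or not, were 70 of 81 snoRNAs and 10 of 12 hosts, and with median ratio scaling 57 of 75 and 8 of 12. The filter matters here: 23 of the 30 had fewer than 2 WT libraries at 1 FPKM and were kept through other libraries, and 10 of the 30 were listed at 0 in all 4 WT libraries. Of the 34 snoRNAs with 2 or more WT libraries at 1 FPKM, 7 were higher (20.6%), against 11.6% of the 7016 genes like them. Groups did not overlap for 18 of 81, near the 21.6% of all genes.

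Snora70, held by Rpl10, was listed at 0 in all 4 WT libraries and was at 8.46, 19.4, 35.8 and 25.1 FPKM in mKO, and at 4.40 in the mHet library (adjusted p = 0.000285). Snord16a, held by Rpl4, was also listed at 0 in all 4 WT libraries and was at 7.86, 11.6, 8.68 and 9.92 in mKO (adjusted p = 0.000285). No fold is given for this pair because WT gives no level to divide by. Snord33, held by Rpl13a, was at 0, 6.85, 0 and 0 FPKM in WT and 20.3, 45.4, 29.1 and 15.3 in mKO (log2 difference 3.98 ± 0.66, adjusted p = 0.00362). Every mKO library of these 3 lay above every WT library.

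Snora68 was at 0, 31.3, 0.364 and 11.5 FPKM in WT and 46.3, 66.7, 115 and 45.8 in mKO (log2 difference 3.74 ± 0.94, adjusted p = 0.0199). Snord12, in the noncoding host Zfas1 (named 1500012F01Rik in the tables), was at 0, 0, 0 and 0.430 in WT and 11.6, 18.8, 4.61 and 7.02 in mKO (3.23 ± 0.44, adjusted p = 0.00149). Both had no overlap between groups, and WT replicate 3 was at or near 0 for each. Snora62, in Rpsa, was the 1 that was lower: 5.64, 2.60, 0 and 4.54 FPKM in WT and 0, 0, 0.190 and 0 in mKO (log2 difference -1.70 ± 0.49, adjusted p = 0.0326), with both groups holding zeros. It met the filter through WT, the group where it is high, as no mKO library reached 1 FPKM. Its adjusted p was 0.169 with median ratio scaling and 0.0922 with Rn45s removed, and 0.0597 to 0.0864 when any library other than replicate 3 of either genotype was left out. That of Snora68 was 0.092 with Rn45s removed, 0.124 with no filter and 0.0522 without mKO replicate 4. Snord33, Snord34 and Snord35a all come from Rpl13a, Snord4a, Snord42a and Snord42b from Rpl23a, and Snord19 and Snord69 from Gnl3, so the 30 are not independent genes.

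**Figure D3:**
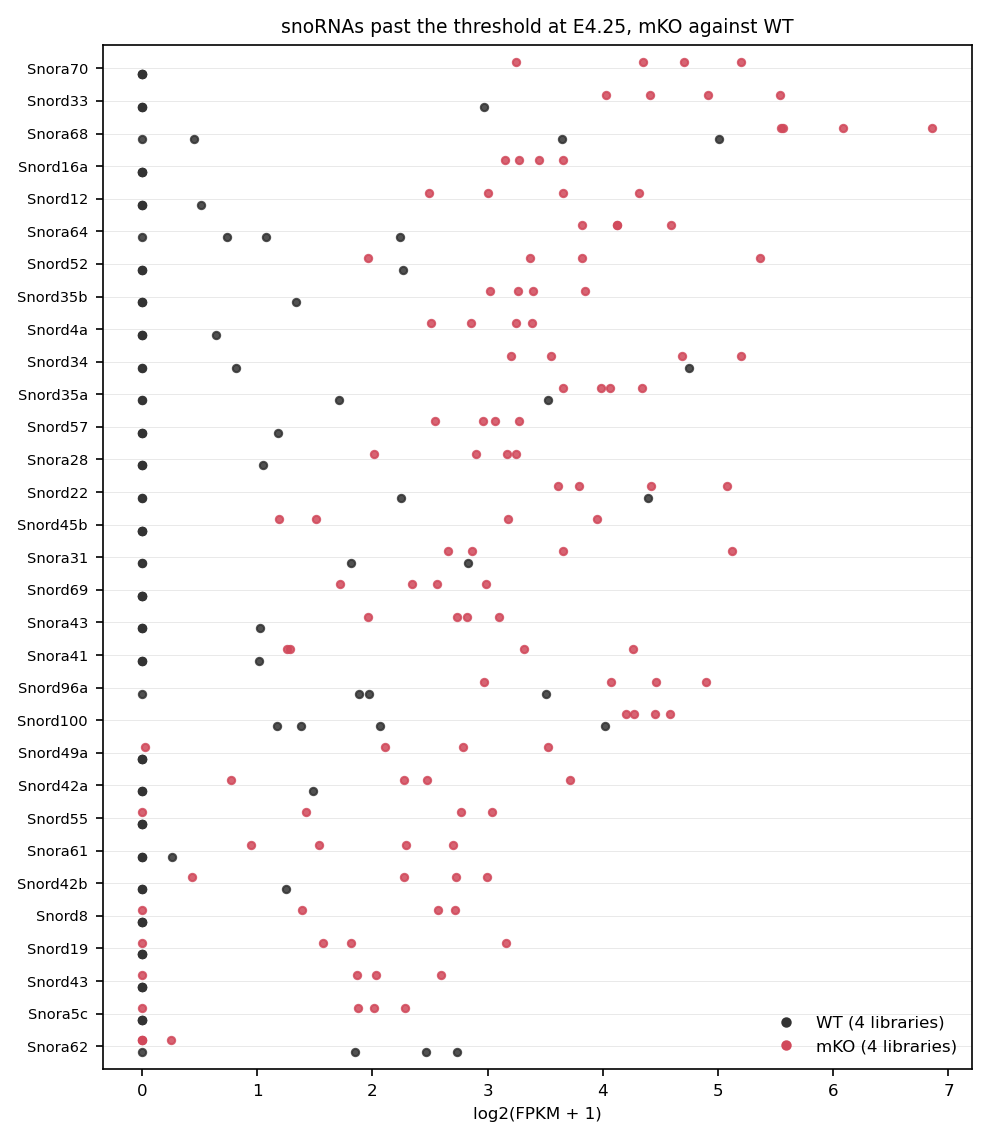
Level of the 31 snoRNAs past the threshold at E4.25, as log2(FPKM + 1), in 4 WT (dark) and 4 mKO (red) libraries. Many WT points lie at 0, and the mKO libraries of Snora70 (8.46 to 35.8 FPKM) and Snord16a (7.86 to 11.6) lie clear of them; Snora62 at the bottom shows the opposite order.

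The 55 tested genes that hold a kept snoRNA had a median log2 difference of 1.27, beside 1.29 for the snoRNAs, and 3 of these genes passed. For 29 of the 30 snoRNAs higher in mKO a holding gene was tested (24 genes), and all of these were higher, as were 8233 of all 9550 genes. For 2 of the 29 the holding gene passed. Rpl10 was at 71.2, 40.9, 9.82 and 28.3 FPKM in WT and 125, 234, 122 and 195 in mKO (log2 difference 2.39 ± 0.77, adjusted p = 0.0483), and Rpl3, which holds Snord43, had an adjusted p of 0.0385. Rpl4 was at 169, 148, 13.6 and 76.2 in WT and 300.0, 374, 103 and 297 in mKO, which overlap (adjusted p = 0.177). Ribosomal protein genes other than Rplp2 hold 14 of the 30 and 29 of the 81, and Gas5 and Snhg genes 2 of the 30 and 10 of the 81.

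No Snhg gene or Gas5 passed at E4.25. Gas5 was at 47.6, 43.3, 3.00 and 29.7 FPKM in WT, 53.2 in mHet and 63.7, 120, 57.0 and 75.2 in mKO (log2 difference 1.76 ± 0.82, adjusted p = 0.138). Snhg1 was at 29.8, 14.2, 0.170 and 19.1 in WT and 41.1, 85.6, 60.9 and 40.9 in mKO (2.44 ± 0.88, adjusted p = 0.069). In both, every mKO library was above every WT library. Snhg9 pointed the other way, at 60.5, 19.7, 9.62 and 12.5 in WT and 0.808, 2.34, 18.9 and 17.8 in mKO (-1.58 ± 0.80, adjusted p = 0.164), with overlap. Snhg8 was at 31.5, 20.7, 1.94 and 7.57 in WT and 11.1, 26.7, 4.92 and 5.84 in mKO, and Snhg12 also overlapped. Of the 12 hosts 5 were higher at an unadjusted limma p under 0.05, against 34% of all genes.

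Library properties and cell type markers differed between the genotypes at E4.25. The Rn45s share was 21.0%, 38.6%, 68.6% and 60.5% in WT, 53.2% in mHet and 24.2%, 11.7%, 52.4% and 26.6% in mKO, and 5923 to 7207 genes reached 1 FPKM in WT against 7194 to 8988 in mKO. Trophectoderm markers summed to 35.2 to 214 FPKM in WT and 260 to 1006 in mKO, and inner cell mass markers to 5.95 to 26.4 in WT and 56.7 to 111 in mKO, without overlap. Epiblast markers (0.0621 to 26.8 and 13.9 to 50.4) and extraembryonic ectoderm markers (1.09 to 178 and 30.4 to 68.2) overlapped. The part of these values in the snoRNA differences was not tested. The count of snoRNAs that passed fell from 31 to 14 with Rn45s removed and to 5 with median ratio scaling, which brought the median of all genes from 0.74 to 0.44 and 0.06. Over all genes the calls fell as well, from 1370 higher and 24 lower of 9550. They were 234 and 6 of 10798 with Rn45s removed, and 29 and 1 of 9172 with median ratio scaling. All 14 and all 5 were among the 31, and the snoRNA medians were 1.37 and 0.87. Without the filter 11 passed. The count was 25, 19 of them among the 31, in the libraries with an Rn45s share of at most 40%, and 19, 20 and 15 without WT replicate 2, mKO replicate 2 and mKO replicate 4. For the fits without the filter or with fewer libraries the share of all genes is not given, so their counts are not read as particular to snoRNAs. Under median ratio scaling the adjusted p was 0.0716 for Snord33 and 0.239 for Snora68. It was 0.012 for Snora70, 0.00446 for Snord16a and 0.012 for Snord12. None of these had a WT library at 1 FPKM, so they were kept through other libraries. Their WT values at 0 stay at 0 under any scaling, so this alternative says little about them.

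None of the same 5 snoRNAs passed at another stage, and each had differences of both signs. In mKO against WT, Snora70 had log2 differences of 2.16 in L2C, -0.70 in 8C, 0.40 and 0.17 in the E3.5 tables, -0.76 in Epi and 0.88 in Exe. Snord16a had -0.35 in L2C, -1.17 in 8C, 2.16 and -0.25 in the E3.5 tables, -0.02 in Epi and 1.46 in Exe. Snord33 had 1.32 in L2C, -1.35 in 8C, 1.03 and -0.56 at E3.5, -0.32 in Epi and 0.95 in Exe, after -1.26 in PN5. Snora68 had -0.61 in FGO, 1.93 in PN5, -0.04 in L2C, 0.03 in 8C, 0.50 and -0.55 at E3.5, 0.50 in Epi and 0.76 in Exe. Snord12 was kept in fewer tables, with 0.61 and -0.70 at E3.5, -1.09 in Epi and -0.31 in Exe. Gas5 had 0.35 in L2C, -0.34 in 8C, 0.23 and -0.22 at E3.5, 1.76 at E4.25, -0.60 in Epi and 0.39 in Exe.

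**Figure D4:**
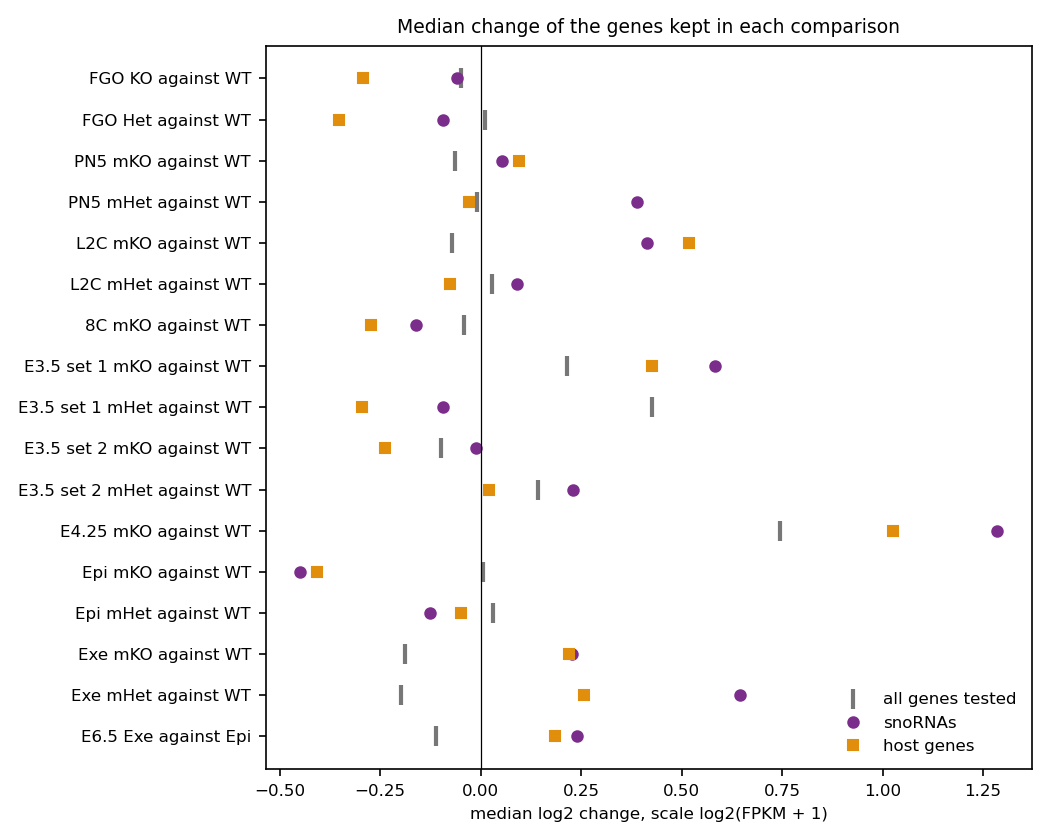
Median log2 difference, on the log2(FPKM + 1) scale, over the snoRNAs, host genes and all genes kept in each comparison; bars mark all genes, circles snoRNAs and squares hosts. At E4.25 all 3 are shifted (0.74, 1.29 and 1.03), while in mKO epiblast snoRNAs and hosts lie at -0.45 and -0.41 and all genes at 0.00.

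In E6.5 epiblast snoRNAs and hosts were mostly below WT in mKO, and none passed. Of 93 snoRNAs kept 65 were lower (median -0.45, all genes 0.00), and 28 had both mKO libraries below both WT libraries, where 21.1% of all genes did. Of 12 hosts 11 were lower (median -0.41). No member passed (0.00907% of all genes), and 12 snoRNAs and 1 host were lower and 1 snoRNA higher at an unadjusted p, against 1.71% and 2.73% of all genes. Snord47, held by Gas5, was at 89.0 and 56.9 FPKM in WT and 15.3 and 14.3 in mKO, with 47.6 and 47.8 for mHet (log2 difference of mKO from WT -2.19 ± 0.51, adjusted p = 0.873). Gas5 was at 207 and 145 in WT and 125 and 104 in mKO, with 163 and 227 for mHet, so its mKO libraries were also below WT, by less (-0.60). Snord67 was the higher member with the smallest p (0 and 0.489 FPKM in WT, 1.19 and 2.26 in mKO, adjusted p = 1), with no WT epiblast library at 1 FPKM. The Rn45s share was 0.341% and 1.42% in WT and 1.54% and 3.20% in mKO epiblast, and its part in these differences was not tested.

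In extraembryonic ectoderm the mKO medians had the other sign (0.23 for snoRNAs, 0.22 for hosts, -0.19 for all genes). No member passed (0% of all genes), and 12 snoRNAs were higher and 5 lower at an unadjusted p, against 2.42% and 5.32% of all genes. Snord1c had the smallest p, listed at 0 in both WT libraries and at 6.97 and 1.62 FPKM in mKO (adjusted p = 0.273), and Snord92 was the lower member with the smallest p (3.09 and 3.24 in WT, 0 and 1.81 in mKO, adjusted p = 0.469). The difference between the mKO effects of the tissues was tested itself: 67 of 93 snoRNAs and 11 of 12 hosts had a more positive effect in Exe (medians 0.77 and 0.70, all genes -0.20), and none passed (0% of all genes). At an unadjusted p 13 snoRNAs were more positive and 2 more negative in Exe, against 0.834% and 2.58% of all genes.

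The mHet libraries at E6.5 held a few snoRNAs well above WT in both tissues, while most snoRNAs were below WT in mHet epiblast. There 54 of 93 were lower and 38 higher, with a median of -0.13 against 0.03 over all genes. In Exe 74 of 93 were higher and 19 lower, with a median of 0.65 against -0.20 over all genes. Snora68 was at 34.2 and 45.4 FPKM in WT and 104 and 102 in mHet epiblast, and at 43.0 and 31.4 in WT and 111 and 224 in mHet extraembryonic ectoderm (log2 differences 1.37 ± 0.41 and 2.07 ± 0.41, adjusted p = 0.97 and 0.463). Snord34 was at 6.57 and 4.87 in WT and 17.8 and 26.7 in mHet epiblast, and at 8.39 and 3.26 against 25.1 and 48.0 in Exe (1.78 ± 0.48 and 2.50 ± 0.48, adjusted p = 0.751 and 0.463). In neither tissue did the groups overlap, and in Epi 19.7% of all genes were higher in mHet without overlap. In Exe 40 of 93 snoRNAs had both mHet libraries above both WT libraries, where 10.6% of all genes did, and 21 were higher at an unadjusted p (2.02% of all genes), but none passed (0% of all genes). The second mHet Exe library had an Rn45s share of 11.6% and a snoRNA sum of 1665 FPKM, the first 1.46% and 935, and the WT libraries 1.84% and 2.43% and 799 and 555. Leaving out either mHet library leaves a single one whose spread is taken from the other groups, and the count of members that passed changed with the library left out. In Epi 6 snoRNAs were higher and 1 lower at an unadjusted p (2.43% and 1.13% of all genes) and none passed (0.0272% of all genes).

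Between tissues at E6.5, 2 members passed, while 14.2% of all genes were higher and 19.4% lower in Exe. Snhg11, a host, was lower in Exe, where its 6 libraries were at 0.356 to 1.02 FPKM against 1.88 to 3.68 in Epi (log2 difference -1.14 ± 0.18, adjusted p = 0.000321). All 6 Epi libraries were above all 6 Exe libraries. Snord92, in an intron of Wdr43, was higher in Exe (1.06 ± 0.23, adjusted p = 0.00309), with 3.09 and 3.24 FPKM in WT and 4.58 and 6.43 in mHet against 1.36 and 1.27, and 1.30 and 1.02 in Epi. It overlapped through mKO, where it was at 0 and 1.81 in Exe and 0 and 0 in Epi. Rn45s itself was higher in Exe (1.37 ± 0.45, adjusted p = 0.0334). Gas5, Snhg1, Snhg3, Snhg5, Snhg6, Snhg8 and Snhg12 overlapped between the tissues. Of 93 snoRNAs 62 and of 12 hosts 8 were higher in Exe, and 68 and 10 with median ratio scaling. With the WT libraries alone 7 snoRNAs and 2 hosts passed. The share of all genes in that fit is not given here, and it was 33.5% with all libraries. Leaving out 1 library leaves a group of 1, and the count of snoRNAs that passed changed with the library left out. In these 12 fits the log2 difference ran from -1.25 to -1.04 for Snhg11 and from 0.809 to 1.31 for Snord92.

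Across libraries, the summed members were set beside the Rn45s share in the 2 tables where that share varied widely, after Rn45s was removed and the rest rescaled. Over the 15 libraries of the second E3.5 table, Pearson's r was 0.52 for snoRNAs (permutation p = 0.0505, adjusted over 4 relations 0.138, Spearman's rho 0.44, p = 0.102) and 0.48 for hosts (p = 0.0688, adjusted 0.138, rho 0.37, p = 0.178). Without the 2 libraries farthest from the median share, r was 0.0023 and 0.31, so the snoRNA value rests on those libraries, among them mKO replicate 4 with a share of 69.5%. Within genotypes r had both signs, from -0.54 in mHet to 0.98 in mKO for snoRNAs and from -0.37 to 0.73 for hosts, over 5 libraries each. Over the 9 libraries of E4.25 r was -0.12 for snoRNAs (exact permutation p = 0.803, adjusted 0.803, rho -0.47, p = 0.213) and -0.43 for hosts (exact p = 0.25, adjusted 0.333, rho -0.48, p = 0.194), and without the 2 farthest libraries 0.14 and 0.28. Within E4.25 WT and mKO r was -0.87 and 0.92 for snoRNAs, over 4 libraries each. None of the 4 relations passed. On the deposited sums, where a large Rn45s share lowers every other gene by construction, r was negative in all 4.

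**Figure D5:**
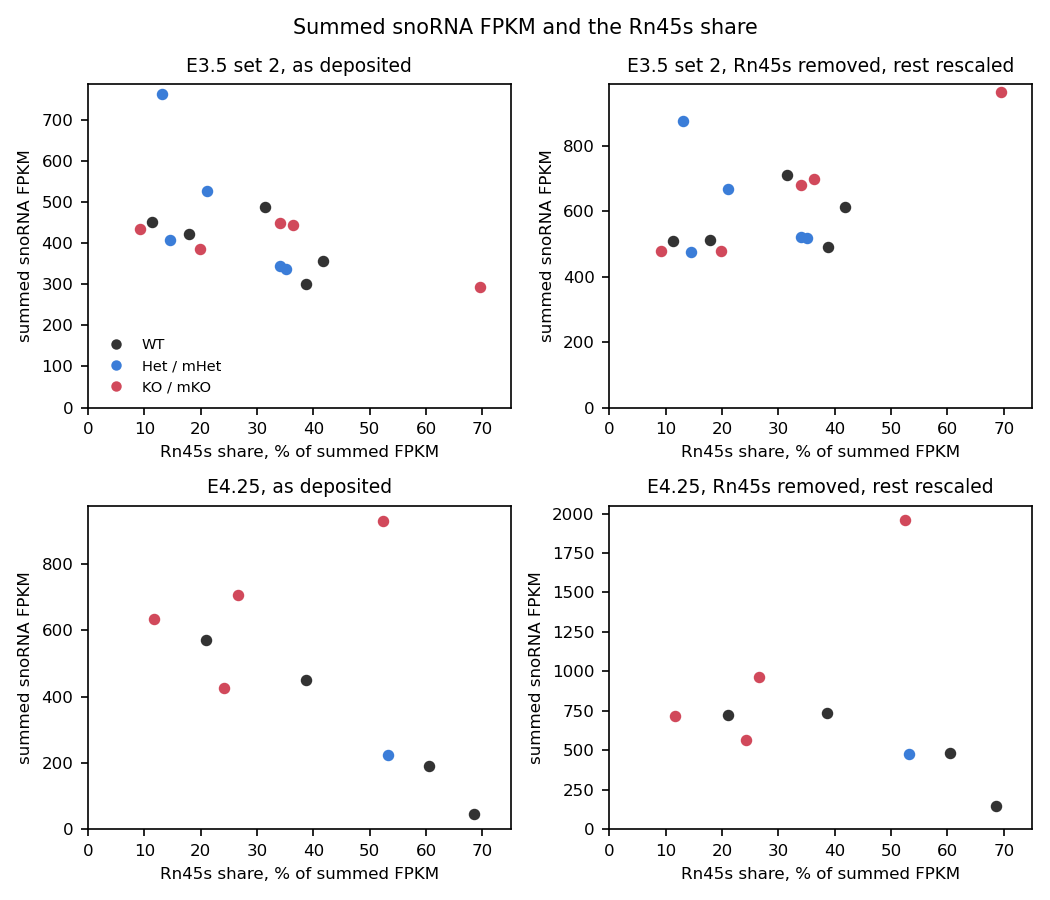
Summed snoRNA FPKM of each library against its Rn45s share, for the second E3.5 table (top, 15 libraries) and E4.25 (bottom, 9 libraries), as deposited (left) and with Rn45s removed and the rest rescaled (right). The E4.25 library at a share of 52.4% with 932 FPKM is mKO replicate 3, and the one at 68.6% with 45.2 FPKM is WT replicate 3.

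Genes that make and use snoRNAs were taken from 6 lists. At E4.25 the lists shifted with the whole table. Of 12 box C/D particle genes 11 were higher in mKO and 3 passed: Taf9 (mean 1.75 ± 1.18 FPKM in WT and 26.1 ± 17.2 in mKO, SD, n = 4 each, adjusted p = 0.00365), a subunit of the general transcription factor TFIID, and Nufip1 and Pih1d1, which act in particle assembly. Of 6 H/ACA particle genes all were higher and none passed, and of 9 maturation and transport genes all were higher and 2 passed, among them Exosc10, a nuclear exosome nuclease (1.39 ± 0.55 and 6.71 ± 1.34 FPKM, adjusted p = 0.0151). Of 10 nonsense-mediated decay genes all were higher and 2 passed, Smg5 (3.64 ± 2.45 and 15.0 ± 2.02 FPKM, adjusted p = 0.0238) and Smg1. Of 11 RNA polymerase I genes kept all were higher and Polr1b passed (1.24 ± 1.18 and 11.2 ± 4.26 FPKM, adjusted p = 0.00705). Of 16 early rRNA processing genes 15 were higher and Wdr12 passed. The list medians ran from 0.57 to 1.28, beside 0.74 for all genes and 14.3% of all genes higher.

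In L2C mKO, where 13 of 14 hosts were above WT, more genes of each of the 6 lists were lower than higher. Of 16 early rRNA processing genes 13 (median -0.16), of 12 RNA polymerase I genes 10 (median -0.20) and of 12 box C/D particle genes 8 (median -0.14) were lower. Of 6 H/ACA particle genes 4 (median -0.10), of 9 maturation and transport genes 7 (median -0.13) and of 10 decay genes 6 (median -0.05) were lower, beside -0.07 for all genes, and none passed. In mKO epiblast, where 65 of 93 snoRNAs were lower, the medians of the 6 lists ran from -0.06 to 0.23 and none of their genes passed. Between tissues 14 of 16 early rRNA processing genes were lower in Exe and 1 passed, Npm1, the nucleolar protein nucleophosmin (3208 ± 486 FPKM in Epi and 2107 ± 635 in Exe, SD, n = 6 each, adjusted p = 0.0273). Of the decay genes Upf3b was lower in Exe, and of the RNA polymerase I genes Polr1d was higher and Rrn3 lower. Over all genes 14.2% were higher and 19.4% lower in Exe, so these calls are not read as particular to the lists.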

How the data were processed

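The authors deposited 8 tables of FPKM per gene and library, made by Smart-seq2 from poly(A) RNA, per the labels' protocols and file headers. The submitters' processing notes list HTSeq 0.6.0, HISAT2 2.2.1 and Trim Galore 0.4.2, and the builds mm9 and hg19 with no role. No tool, gene length, strand setting or treatment of multi-mapping reads behind the FPKM is given in these sources, so Snora43 and Snora16a, which have 2 annotated copies each, and snoRNAs over host exons are uncertain. The number of reads is unknown, and no counting interval is given.

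Members, lists, comparisons and alternatives were chosen with earlier results of these data known. Columns were matched to samples by title, epiblast columns to their group alone. The 2 identical E4.25 mHet libraries counted as 1. Names turned into dates (25, 27 and 27) were dropped in 3 tables. Each table was fitted alone with limma 3.58.1 in R 4.3.3 (lmFit, eBayes with a trend) on log2(FPKM + 1), pseudocount 1, for genes that reached 1 FPKM in 2 or more libraries, with a mean per group and Benjamini-Hochberg adjustment over all genes kept; 18 comparisons were made, two-sided. The fit was tested on simulated data. Correlations used permutations (100000, or exact for 9 libraries). The text names Rn45s, 7 hosts, each member past the threshold (the 5 with the largest change each way where more than 10 pass), the 3 highest snoRNAs and hosts of a table, the smallest p each way in a knockout comparison, and up to 3 list genes past the threshold; others were chosen after their values were seen. Annotation came from GENCODE M21 on GRCm38 by name, another build than the files', so no coordinates are printed, and it held 104 of 105 snoRNAs. Alternatives were a pseudocount of 0.1, no filter, median ratio scaling, Rn45s removed, other sets of libraries, a replicate block, Rn45s as a term and leaving out each replicate.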

Additional observations from a re-analysis of the deposited data

Results flagged for a closer look

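In 6 of 81 groups of 4 to 10 libraries checked among the members named here, 1 library lay farther from the rest than Dixon's 95% limit allows, and chance gives about 1 in 20. In E3.5 WT, replicate 6 had Snhg12 at 22.1 FPKM, the other 4 being at 6.63 to 11.0. In E3.5 mHet, replicate 7 had Snhg5 at 62.6 FPKM, the others being at 15.9 to 24.7, and this library also had the highest snoRNA sum of its table (762 FPKM). At E4.25, WT replicate 2 had Snord33 at 6.85 FPKM and WT replicate 4 had Snord12 at 0.430, the others being listed at 0. Among E4.25 mKO libraries, replicate 2 had Snhg5 at 51.5 FPKM (others 17.9 to 18.3) and replicate 3 had Snora62 at 0.190 (others 0). For Snord33, Snord12 and Snora62 any value above 0 meets that limit when the other libraries are at 0, so the number of groups found cannot be read against the 1 in 20.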

How the results depend on the processing

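The number of reads behind each FPKM is unknown, and snoRNA levels near 0 may rest on very few reads. Of 440 recomputed counts and relations 402 kept their direction and side of the threshold, or, for counts, stayed within 1.5 times. Counts of 0 that stayed at 0 are among those kept, and most comparisons had no member past the threshold. The 402 therefore say little about how stable the counts above 0 are. At E4.25 in mKO the 31 snoRNAs became 11 without the filter on low values, 5 with median ratio scaling and 14 with Rn45s removed, and 15 to 33 when a replicate was left out. Over all genes the calls fell too, from 1370 higher and 24 lower to 29 and 1 with median ratio scaling and to 234 and 6 with Rn45s removed. The 0 hosts became 2 with the replicate block or at an Rn45s share of at most 40%, and 0 to 2 without a replicate. With the replicate block 4 snoRNAs passed in 8C mKO and 1 in the first E3.5 table in mKO, where Rn45s as a term gave 4 snoRNAs and 1 host. In E3.5 mHet (first table) leaving out a replicate gave 0 to 11 snoRNAs and 0 to 1 host, and in Exe mHet 0 to 19 and 0 to 2. Between tissues hosts became 2 with median ratio scaling or WT alone, snoRNAs 7 with WT alone, and leaving out a replicate gave 1 to 12 snoRNAs and 1 to 2 hosts. The relation to the Rn45s share reversed in the second E3.5 table on the deposited sums (r = -0.56 for snoRNAs and -0.69 for hosts) and for the snoRNA median (r = -0.37), and for hosts at E4.25 it passed on the deposited sums (r = -0.86). The cause was not tested. Calls over all genes are given here only for median ratio scaling and the removal of Rn45s at E4.25. The other counts of members are therefore not read as particular to snoRNAs or hosts.

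Same-numbered libraries deviated together in the comparisons of 2 against 2 libraries up to L2C and in the first E3.5 table (r from 0.16 in E3.5 mHet to 0.71 in FGO Het), where 2 pairs are too few to take the numbers as pairs, and not throughout in the other comparisons (-0.41 to 0.70). The labels do not say what a number shares. The replicate block moved no other member count by over 1.5 times. No paired analysis was possible because of the column numbers in the epiblast comparisons, the tissue comparison and the difference between tissues, where epiblast columns carry other numbers than the titles; in all other comparisons the block was run. With the library-name set as a term, added after seeing the data, 0 members passed in oocytes.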
